A study of Bos taurus with 32 samples.

Results

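FLI stands for FGF2, LIF and IGF1, 3 cytokines that were added together to bovine embryos developing in vitro, and control embryos developed without them. The comparison described here is FLI against control at the morula stage, when the embryo is a ball of cells that compacts before its first lineages separate. Each library is RNA from a pool of 15 embryos. The comparison uses 4 FLI libraries (replicates 2, 4, 6 and 7) and 3 control libraries (replicates 1, 3 and 7), which are 7 of the 32 samples of the study. The fourth control morula library, replicate 4, was left out because it held 83409 reads, under the minimum of 1000000 set for this comparison. The labels give neither the doses nor the duration of the addition, and they leave unstated whether each pool had a culture of its own. The p-values therefore refer to the spread among these pools, part of which may be technical.

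The 3 cytokines act through different receptors. FGF2 binds FGF receptors and activates the RAS-ERK cascade, LIF binds LIFR paired with IL6ST and activates JAK kinases and STAT3, and IGF1 binds IGF1R and activates PI3K and AKT. Each route induces its own inhibitors, such as the dual-specificity phosphatases and Sprouty proteins for ERK and the SOCS proteins for JAK-STAT, so that transcripts of these inhibitors are commonly read as a record of signalling. In the mammalian embryo FGF signalling through ERK biases inner cells towards the hypoblast, and LIF-STAT3 signalling is known for its part in pluripotency.

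The libraries carried the transcripts that mark a morula. Over the 7 libraries, reads scaled jointly over the stages (CPM) were 491 to 1472 for CDH1, the cadherin of compaction, and 159 to 1199 for the keratin KRT8. The tight junction gene CLDN4 lay at 91.2 to 298 against at most 0.704 at the 9-16 cell stage, and the pluripotency factor POU5F1 at 873 to 1502 against 41.8 to 78.5. GDF9, an oocyte factor, was at 0.472 to 1.62 against 159 to 343 at the 9-16 cell stage. KRT19 and PTGS2, which rise when the blastocyst forms, were at 10.03 to 43.1 and 7.09 to 26.9, below the 2260.03 to 6306 and 712 to 2370.1 of blastocysts. Not all markers checked parted the stages. CDH1 was at 493 to 1317 in blastocysts, and the ranges of GATA4, SOX17 and COL4A1 overlapped between morulae and blastocysts. The 9-16 cell markers ZSCAN4 and KLF17 were still at 26.5 to 63.0 and 29.1 to 151, against 61.0 to 101 and 95.4 to 726 at that stage.

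All values below are the deposited signal, reads divided by a scaled library size, and library values are always listed in the order FLI 2, 4, 6 and 7, then control 1, 3 and 7. A difference is the mean of log2(value + 1) with FLI minus that of controls, with its standard error (SE), and it understates the change of genes near or below 1. The deposited values are not scaled by gene length, so levels of different genes are not on one scale. Where median levels of gene groups, marker sums or the most abundant markers are given below, they depend on gene length too. In pooled embryos, fewer cells of a type and less RNA per cell cannot be told apart.

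The 7 libraries did not fall into clean groups. Reads per library were 26452492, 11641958, 55463346 and 114138150 with FLI and 94144646, 95562215 and 44169869 in controls. On the first principal component, which held 70.7% of the variance over 13254 genes, the FLI libraries lay at -71.8, -63.3, -14.2 and 0.231 and the controls at 92.8, 67.8 and -11.4. Control 7 thus lay beside FLI 6 and apart from controls 1 and 3. Across genes, log2 values of control 7 correlated with FLI 6 at a Pearson coefficient of 0.986, and with controls 1 and 3 at 0.923 and 0.947. FLI 7 was alone on the second component, which held 18.5% of the variance, at -71.2, while the other 6 libraries lay between 8.85 and 16.0.

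Some measures of the libraries moved with the groups or with these positions. The share of reads from the mitochondrial genome was 3.03%, 3.95%, 3.40% and 1.39% with FLI and 5.78%, 6.11% and 4.30% in controls, so the groups did not overlap (two-sided exact permutation p = 0.0286, the smallest that the 35 arrangements of 4 and 3 libraries can give; adjusted p = 0.143 over 5 measures). The entries named bta-mir-2887, a miRNA annotation taken here to hold fragments of rRNA and called rRNA fragments below, took 4.64%, 5.98%, 2.69% and 0.00225% of reads with FLI and 0.0378%, 0.294% and 1.87% in controls (exact permutation p = 0.171, adjusted p = 0.214). The number of genes detected at 1 CPM was 13093, 13275, 13174 and 12849 with FLI and 12013, 12502 and 13062 in controls (exact permutation p = 0.0857, adjusted p = 0.190). The share of the 100 most abundant genes was 24.5%, 26.7%, 21.5% and 18.3% against 27.2%, 25.6% and 21.7% (exact permutation p = 0.457).

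Short and long genes also moved apart. The median log2 deviation of genes of at most 1320 bases minus that of genes of at least 3943 bases was -1.02, -0.97, -0.22 and 0.13 with FLI and 1.33, 0.99 and -0.18 in controls (exact permutation p = 0.114, adjusted p = 0.190). In 5 equal bins of gene length, from shortest to longest, the median log2 difference between FLI and control was -0.83, -0.15, 0.21, 0.35 and 0.38. Across the 13254 genes, length and log2 difference had a Spearman coefficient of 0.473, given as a description since genes share libraries and are not replicates. Gene groups below are therefore given with a length-adjusted median as well, which is the median log2 difference after the trend of each library on gene length was removed. Over all genes tested it was 0.04. The part of rRNA fragments, mitochondrial reads or gene length in the differences below was not tested beyond these values.

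**Figure D1:**
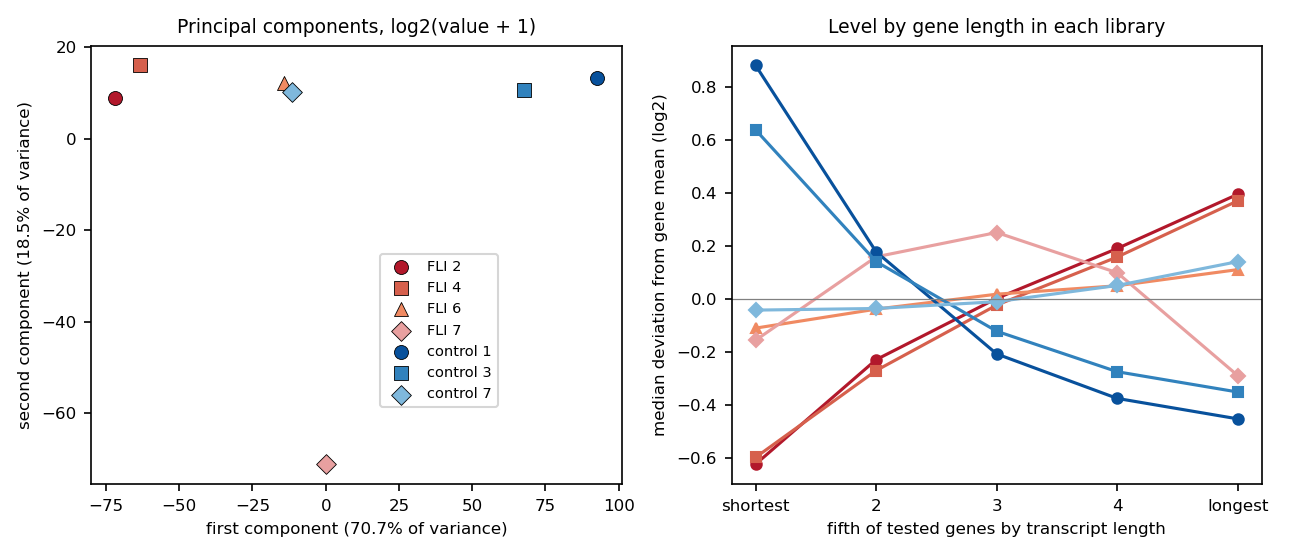
Left, the 7 morula libraries on the first 2 principal components of log2(value + 1) over 13254 genes, one point per library and one colour per group. Control 7 lies at -11.4 on the first component beside FLI 6 at -14.2, and FLI 7 lies apart at -71.2 on the second. Right, the median log2 deviation of each library from the mean of all 7 in 5 equal bins of gene length: controls 1 and 3 fall from short to long genes, FLI 2 and 4 rise, and FLI 6 and control 7 are nearly flat.

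Over 13254 genes tested with limma, 0 (0%) passed a Benjamini-Hochberg adjusted p of 0.05 between FLI and control morulae, and the smallest adjusted p was 0.0630. At an unadjusted p under 0.05 there were 4203 genes, 31.7% of those tested, of which 1592 were higher with FLI. In 1157 genes (8.73%) every FLI library lay above every control, and in 1663 (12.5%) every FLI library lay below every control. On reads recovered from the same values, edgeR's quasi-likelihood test called 891 genes, 32 higher (0.241%) and 859 lower (6.48%) with FLI, at adjusted p-values of 0.0464 to 0.04998. That count rested on most of the libraries: edgeR called 0 genes without FLI 2, FLI 4, FLI 7, control 1 or control 3 (with 2710, 2911, 5184, 1882 and 2190 genes at an unadjusted p under 0.05), 834 without FLI 6 and 4616 without control 7, of which 1861 were higher. limma likewise called 4620 genes without control 7, 1847 higher and 2773 lower, and 0 without any other single library. DESeq2 called 2547 genes (492 higher, 2055 lower) and limma-voom 0, with 4165 at an unadjusted p under 0.05.

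Control 7 was usually the library that brought the groups close. Among the 1663 genes below all controls it was the lowest control in 1569, and FLI 6 was the highest FLI library in 1091. Among the 1157 genes above all controls it was the highest control in 948, and FLI 6 the lowest FLI library in 567. The 859 genes that edgeR called lower had a median length of 952 bases and a median level of 93.5, while all genes tested had 2380 bases and 18.8. The 32 called higher had a median length of 2694 bases and a median level of 11.7. With the length trend removed, the median difference of the lower genes moved from -1.73 to -1.10, with 849 of 859 still negative, and that of the higher genes from 1.33 to 1.13, with 32 of 32 still positive. Over all genes tested, 10792 of 13254 kept their sign. The called genes had been chosen by their differences in these same libraries, so that they mostly kept their sign follows largely from that choice.

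The genes with the smallest p that were higher with FLI include surface, antigen-presentation and signalling genes. The 12 genes named per direction were taken from genes without overlap between groups, so their lack of overlap follows from that choice. KRT80 (chromosome 5, 27732717 to 27757234 in the build ARS-UCD1.2), a type II epithelial keratin, stood at 14.7, 7.69, 12.5 and 13.7 with FLI and 3.02, 3.399 and 4.27 in controls. The lowest FLI library lay above the highest control, and the log2 difference was 1.5 (SE 0.28, edgeR adjusted p = 0.0464). TAPBP (chromosome 23, 7473580 to 7484202), the tapasin that loads peptides onto MHC class I, was at 17.4, 15.4, 13.4 and 29.5 against 4.63, 6.24 and 6.23, a log2 difference of 1.52 (SE 0.31, edgeR adjusted p = 0.0464). TAP2, a subunit of the peptide transporter that tapasin binds, was at 11.01, 8.75, 7.68 and 13.8 against 2.25, 3.501 and 4.45 (1.36, SE 0.29, edgeR adjusted p = 0.0464). Both genes of this loading step were higher in each FLI library than in any control, and in both FLI 6 was the lowest FLI library.

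IL13RA1, a receptor chain for IL13 and IL4 that signals through JAK kinases, was at 37.6, 23.4, 28.6 and 24.9 with FLI and 10.2, 10.98 and 12.9 in controls (log2 difference 1.24, SE 0.26, edgeR adjusted p = 0.0464). S1PR1, a receptor for sphingosine-1-phosphate, was at 24.1, 18.7, 13.5 and 9.62 against 2.49, 4.65 and 6.86 (1.63, SE 0.38, edgeR adjusted p = 0.0472), with the closest libraries being FLI 7 and control 7. CCN1 (chromosome 3, 58488378 to 58491302), a matrix protein and a common transcriptional target of YAP, was at 19.9, 21.5, 26.3 and 17.04 against 8.63, 8.11 and 9.704 (1.16, SE 0.25, edgeR adjusted p = 0.0464). Its controls lay within a narrow range and each was below every FLI library. A2M, a protease inhibitor of body fluids, was at 48.7, 13.3, 15.2 and 13.7 against 3.98, 3.28 and 5.78 (1.95, SE 0.44, edgeR adjusted p = 0.0464), and FLI 2 alone was far above the rest. VRTN, a gene known for its effect on vertebral number in pigs, was at 13.02, 11.1, 6.94 and 9.66 against 0.927, 2.32 and 4.69 (1.72, SE 0.38), just above the threshold in edgeR (adjusted p = 0.0521).

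The other higher genes of the 12 were APH1A, a gamma-secretase subunit (1.41), MANEAL (1.5), the F-box protein FBXO33 (1.47) and KIAA0895L (1.5), each without overlap between groups and called by edgeR (adjusted p = 0.0464, 0.0467, 0.0484 and 0.0464). APH1A (chromosome 3, 20372002 to 20376143) overlaps CA14 on the other strand, and MANEAL overlaps YRDC. Since the strand setting of the counting is not given in the sources used here, reads of such pairs cannot be told apart. Of the 133 named genes, 15 overlap another listed gene. In 11 of the 12 higher genes, control 7 was the highest control.

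The genes with the smallest p that were lower with FLI included linker and core histones. H1-4 (chromosome 23, 31796098 to 31796757), a linker histone, was at 67.4, 67.4, 59.9 and 76.3 with FLI and 624, 418 and 175 in controls. Means were 67.7 ± 6.71 (SD, n = 4) with FLI and 406 ± 224 (SD, n = 3) in controls, 5.99-fold higher in controls, and the log2 difference was -2.39 (SE 0.39, edgeR adjusted p = 0.0464). The FLI libraries were close together and the controls were spread, with control 7 the lowest of them. H2AC12, a core histone, was at 13.7, 15.7, 29.8 and 14.1 against 135, 95.9 and 49.8 (-2.25, SE 0.39, edgeR adjusted p = 0.0464). H2BC18 (chromosome 3, 20779441 to 20779821), another core histone, was at 2.96, 2.74, 1.53 and 3.998 against 11.4, 9.98 and 11.8 (-1.7, SE 0.28, edgeR adjusted p = 0.0464), and here control 7 was not lower than the other controls. Histone genes have near-identical copies, between which counting could split reads, so single histones are uncertain.

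The other lower genes included complex I subunits and a regulator of the Na/K pump. ND3 (chromosome MT, 9823 to 10168), a complex I subunit of the mitochondrial genome, was at 114, 155, 223 and 177 with FLI and 1395, 1500.2 and 429.9 in controls (log2 difference -2.56, SE 0.46, edgeR adjusted p = 0.0464). NDUFA12, a complex I subunit of the nuclear genome, was at 45.96, 54.7, 126 and 97.2 against 565, 529.9 and 233 (-2.45, SE 0.44, edgeR adjusted p = 0.0464). In both, controls 1 and 3 lay far above control 7, which was nearest to FLI 6. FXYD4 (chromosome 28, 13792840 to 13795964), a regulator of the Na/K pump, was at 25.9, 34.1, 30.4 and 39.2 against 305, 204 and 76.7 (-2.36, SE 0.42, edgeR adjusted p = 0.0464). GUCA1A (chromosome 23, 15892199 to 15899850), a guanylate cyclase activator known from photoreceptors, was at 10.2, 16.97, 25.8 and 22.2 against 180.1, 125 and 54.5 (-2.52, SE 0.44, edgeR adjusted p = 0.0464). Both showed no overlap, with all 4 FLI libraries under the lowest control.

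TUT4 (chromosome 3, 93801866 to 93931333), a uridylyltransferase that marks mRNA and let-7 precursors for decay, was the one long transcript among the 12 lower genes, at 6136 bases. Its values were 14.01, 18.6, 16.9 and 13.4 with FLI and 64.2, 43.3 and 35.003 in controls (log2 difference -1.5, SE 0.28, edgeR adjusted p = 0.0464), and the difference was -1.84 with the length trend removed. FCF1, a processing factor of small-subunit rRNA (chromosome 10, 85987324 to 85998914), was at 90.9, 97.6, 206 and 142 against 801, 688 and 327 (-2.15, SE 0.4, edgeR adjusted p = 0.0464), and it overlaps AREL1. BCAS4 (-1.8), PEBP4, a phosphatidylethanolamine-binding protein (-1.62), and CCDC152, which overlaps SELENOP (-2.05), complete the list, each called by edgeR (adjusted p = 0.0464). In 11 of the 12 lower genes control 7 was the lowest control. Since the 24 genes were chosen without overlap between groups, leaving out any 1 of the 7 libraries could not turn their sign. In a fit with control 4 kept and the replicate number as a block, 16 of the 24 kept it.

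**Figure D2:**
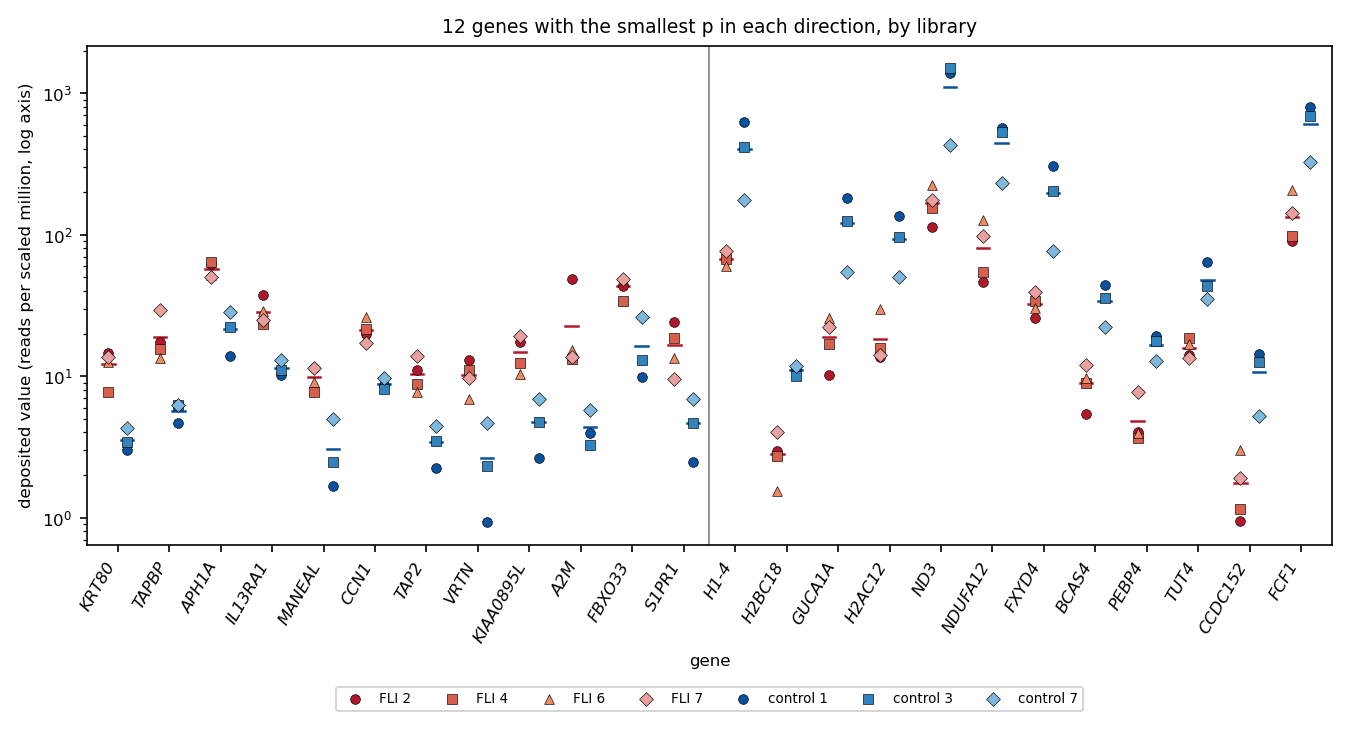
Deposited values (log axis) of the 12 genes higher and the 12 lower with FLI that had the smallest unadjusted limma p, one point per library and one colour per group. The genes were taken from those without overlap between groups, so in each the 4 FLI points lie on one side of the 3 control points. Control 7 is the control nearest to the FLI libraries in 11 of 12 genes of each direction.

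The members of the pathway that the mix addresses were read in order, beginning with the embryo's own ligands. FGF2 transcripts lay between 0.0875 and 0.551 in the 7 libraries, under the mean of 1 needed for the test. The ligand list had 6 members that reached it, with 2 differences positive and 4 negative and a median log2 of -0.08, a sign that turned with library sizes counted without rRNA fragments and mitochondrial genes (0.30), without single libraries (up to 0.02) and in the length-adjusted median (0.59). IL6 (chromosome 4, 31454749 to 31459131), which signals through IL6ST like LIF, was at 23.7, 25.6, 38.5 and 44.4 with FLI and 66.9, 60.5 and 50.5 in controls. Every FLI library lay below every control (log2 difference -0.86, SE 0.29, edgeR adjusted p = 0.09499), and the difference was -0.23 with the length trend removed. FGF19, an endocrine FGF, was at 2.24, 5.94, 2.51 and 2.103 against 0.635, 1.41 and 1.96 (0.8, SE 0.34), also without overlap, with FLI 4 well above the others. FGF4, the ligand made by epiblast precursors, was at 13.3, 7.99, 4.87 and 7.81 against 8.09, 8.33 and 10.4 (-0.13, SE 0.32). FGF4, FGF8 (-0.03), FGF9 (-0.23) and CLCF1 (0.43) overlapped between the groups.

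Of 11 receptors tested, 9 had a positive difference and the median was 0.63, against 54.3% positive and a median of 0.083 over all genes tested. Of the 11, 3 (27.3%, against 8.73% of all genes) lay above all controls. FGFR2 (chromosome 26, 41450745 to 41558092), a receptor that binds FGF2 and other FGFs, was at 11.6, 12.6, 12.1 and 8.76 with FLI and 3.43, 3.92 and 6.41 in controls, without overlap (1.16, SE 0.28, edgeR adjusted p = 0.0482). FGFR4 (chromosome 7, 38575410 to 38586456) was at 512, 347, 293 and 245 against 78.2, 122 and 239 (1.34, SE 0.41, edgeR adjusted p = 0.0925), where FLI 7 and control 7 nearly met. IL6R, the receptor chain specific for IL6, was at 248, 204, 163 and 172 against 83.5, 101 and 147 (0.85, SE 0.29, edgeR adjusted p = 0.101). The 3 receptors above lay higher in every FLI library than in any control, and of these edgeR called FGFR2.

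The receptors of LIF and IGF1 showed other patterns. LIFR, the chain that binds LIF, was at 8.46, 7.69, 6.699 and 4.71 with FLI and 7.76, 6.37 and 6.14 in controls (0.01, SE 0.27), with full overlap. IL6ST, the shared signalling chain, was at 37.2, 33.3, 31.4 and 26.9 against 50.7, 47.1 and 41.7 (-0.52, SE 0.23, edgeR adjusted p = 0.165), lower in every FLI library. IGF1R was at 38.5, 38.4, 17.3 and 6.26 against 6.197, 8.58 and 24.4 (0.82, SE 0.63), and its FLI libraries spread over the whole range of the controls, with FLI 7 down beside control 1. FGFR1 (-0.14), FGFR3 (0.59), the decoy-like FGFRL1 (1.01), the IGF2 clearance receptor IGF2R (0.63) and the insulin receptor INSR (0.56) also overlapped between groups. The median of the receptors was 0.27 with the length trend removed, and without single libraries it lay between 0.42 and 1.05.

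Binding proteins of the IGFs and the IGF2 mRNA-binding proteins, listed together, had 8 of 9 members positive, with a median of 0.46 (length-adjusted 0.47) and wide spreads within groups. IGFBP6, which prefers IGF2, was at 5.13, 6.09, 15.8 and 17.8 with FLI and 28.2, 25.05 and 15.7 in controls (-1.11, SE 0.44). IGFBP2, a binding protein of both IGFs, was at 1573, 1156, 759.6 and 109 against 109, 294 and 493, and IGFBP7 at 10.2, 1.98, 0.586 and 29.8 against 1.08, 38.4 and 0.835. Each of the 3 overlapped between the groups. Single libraries differed by more than the groups did, with IGFBP2 lowest in FLI 7 and control 1.

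Of 21 RAS-ERK transducers, 16 were positive with a median of 0.67, 5 (23.8%, against 8.73% of all genes) lay above and 1 (4.76%, against 12.5%) below all controls, and edgeR called 1 in each direction (0.241% higher and 6.48% lower over all genes). RPS6KA1, a kinase that ERK phosphorylates, was at 168, 149.8, 116 and 172 with FLI and 44.4, 54.3 and 94.1 in controls, without overlap (1.28, SE 0.31, edgeR adjusted p = 0.0484). PTPN11, the phosphatase SHP2 that links receptors to RAS, was at 62.8, 60.1, 82.1 and 87.8 against 281, 216 and 113 (-1.38, SE 0.34, edgeR adjusted p = 0.0464), and its difference was -1.4 with the length trend removed. It ran opposite to most of its list and was lower in every FLI library than in any control.

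Of 15 JAK-STAT transducers 13 were positive, median 0.43, and of 28 PI3K-AKT-mTOR transducers 21 were positive, median 0.52, with 4 above all controls in each (26.7% and 14.3%, against 8.73% of all genes), while edgeR called 0 of either list. STAT3 was at 301, 267, 201 and 163 with FLI and 75.6, 105 and 214 in controls (0.92, SE 0.38), and control 7 lay among the FLI libraries. STAT2, an interferon signal transducer, was at 31.6, 23.4, 22.5 and 30.8 against 6.54, 9.67 and 20.6 (1.21, SE 0.36, edgeR adjusted p = 0.0972), and PIAS3, an inhibitor of STAT3, at 18.2, 15.98, 18.05 and 24.2 against 7.12, 7.85 and 13.4 (0.97, SE 0.29, edgeR adjusted p = 0.0732), both without overlap. AKT1, the kinase downstream of IGF1R, was at 222, 174, 109.7 and 345 against 35.998, 67.3 and 139.9 (1.47, SE 0.49), with FLI 6 below control 7. RPTOR, the mTORC1 scaffold, was at 36.7, 30.4, 24.1 and 22.8 against 8.67, 10.3 and 21.8 (1.1, SE 0.34, edgeR adjusted p = 0.0996). The medians of the 3 transducer lists were 0.35, 0.17 and 0.27 with the length trend removed.

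Feedback inhibitors were positive in most members, and no member was called by limma or edgeR. Of 14 ERK feedback inhibitors, 12 were positive, the median was 0.78 and 4 (28.6%, against 8.73% of all genes) lay above all controls. DUSP5, a nuclear phosphatase of ERK, was at 68.6, 50.6, 39.8 and 112 with FLI and 12.6, 18.3 and 36.8 in controls (1.57, SE 0.43, edgeR adjusted p = 0.06403). DUSP6, the cytoplasmic ERK phosphatase, was at 7.72, 4.95, 9.73 and 14.8 against 4.43, 2.68 and 4.31 (1.03, SE 0.35), and ERRFI1, an inhibitor of EGF receptors, at 66.3, 46.7, 46.4 and 86.2 against 16.6, 25.2 and 39.8 (1.18, SE 0.35, edgeR adjusted p = 0.0742). These 3 did not overlap between groups, although FLI 6 and control 7 came within a few units for DUSP5. SPRY2 (-0.01) and IL17RD (-0.15), which restrain FGF receptors, were the 2 negative members. The mean deviation of the list was 0.54, 0.20, 0.01 and 0.47 in the FLI libraries and -0.73, -0.52 and 0.03 in the controls, so control 7 lay at the level of FLI 6.

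Of 8 SOCS inhibitors of JAK-STAT signalling, 7 were positive with a median of 0.99, and 2 (25%, against 8.73% of all genes) lay above all controls. SOCS3, which binds IL6ST, was at 83.1, 22.1, 22.6 and 4.903 with FLI and 0.875, 2.74 and 9.07 in controls (2.46, SE 0.81), the widest spread of the list, with FLI 7 below control 7. SOCS1, which blocks JAK kinases, was at 93.9, 53.3, 62.6 and 96.4 against 24.2, 28.9 and 46.7 (1.19, SE 0.32, edgeR adjusted p = 0.0565), and CISH at 9.93, 8.6, 6.87 and 10.05 against 2.75, 3.09 and 6.86 (0.98, SE 0.31), both with every FLI library above every control. SOCS4, a member known as a regulator of EGF receptors, was the negative one, at 12.4, 13.5, 16.5 and 20.8 against 38.1, 37.4 and 20.2 (-0.94, SE 0.31). With the length trend removed the medians of the ERK and SOCS inhibitors were 0.62 and 0.90, and without single libraries they ranged from 0.54 to 1.13 and from 0.59 to 1.37.

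Targets of the pathways were also positive in most members. The lists share genes, such as SOCS3 in the SOCS and LIF-STAT3 lists, so their directions rest partly on the same values. Of 30 FGF-ERK target factors, 28 were positive (median 0.70), 6 (20%, against 8.73% of all genes) lay above all controls and 0 below, and edgeR called ETV4. ETV4, an ETS factor and a standard FGF readout, was at 8.53, 4.11, 7.04 and 7.49 with FLI and 1.63, 1.896 and 3.48 in controls (1.23, SE 0.31, edgeR adjusted p = 0.0497). MYCN, a growth-promoting MYC family factor, was at 61.5, 47.9, 41.8 and 56.7 against 19.6, 24.7 and 32.7 (1.01, SE 0.27, edgeR adjusted p = 0.0545), with no overlap. Of 26 LIF-STAT3 targets, 23 were positive (median 0.68), 8 (30.8%, against 8.73% of all genes) lay above all controls and 0 below. BCL3, an NF-kB cofactor that STAT3 induces, was at 137, 56.6, 60.8 and 71.2 against 20.2, 27.2 and 41.4 (1.39, SE 0.37, edgeR adjusted p = 0.0535), and ICAM1, an adhesion receptor, at 18.7, 14.3, 11.6 and 23.7 against 4.39, 6.04 and 11.5 (1.17, SE 0.36, edgeR adjusted p = 0.0843), where FLI 6 and control 7 touched. These medians were 0.46 and 0.45 with the length trend removed.

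Of 23 FOXO targets, which AKT restrains, 16 were positive, with a median of 0.33 (length-adjusted 0.09) and 1 member (4.35%, against 12.5% of all genes) below all controls. That member was TRIM63, a ubiquitin ligase known from muscle, at 16.5, 18.04, 19.9 and 15.6 with FLI and 30.5, 29.6 and 33.4 in controls (-0.8, SE 0.23, edgeR adjusted p = 0.060004). Here control 7 was the highest control, and the 4 FLI libraries lay close together. SESN3, a stress sensor induced by FOXO, was at 9.28, 13.2, 6.25 and 2.93 against 2.25, 3.22 and 6.05 (0.81, SE 0.45), with overlap. limma and edgeR called 0 of the list.

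**Figure D3:**
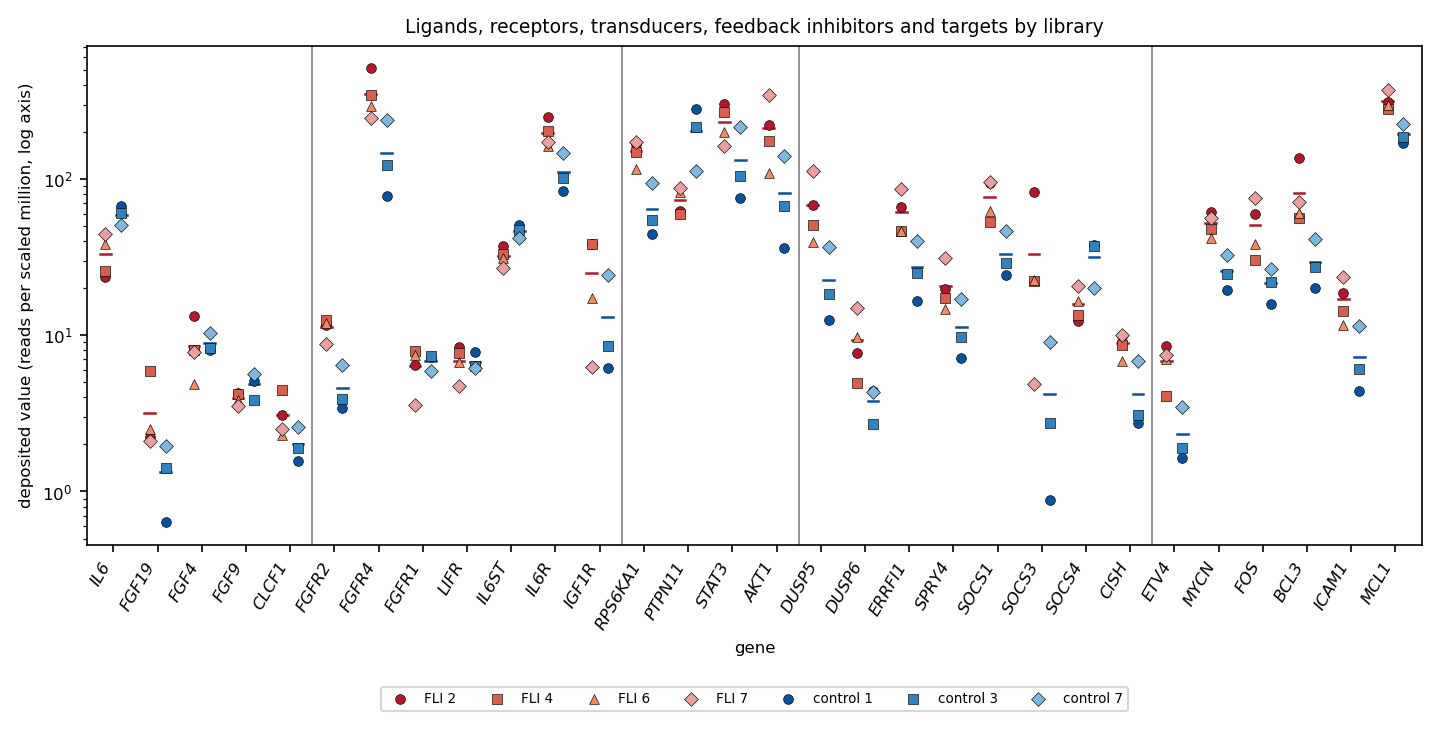
Deposited values (log axis) of 30 ligands, receptors, transducers, feedback inhibitors and targets, with one point per library, colours for the groups and bars for the arithmetic mean of each group. IL6, IL6ST and PTPN11 lie lower in all 4 FLI libraries, FGFR2, SOCS1 and ETV4 lie higher in all 4, and LIFR and FGF4 overlap.

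Interferon-related genes split. Of 21 tested, 15 were positive (median 0.29, length-adjusted 0.38), 5 (23.8%, against 8.73% of all genes) lay above and 1 (4.76%, against 12.5%) below all controls, and edgeR called 2 higher and 1 lower (0.241% and 6.48% of all genes). IRF1, a transcription factor that interferon and STAT signals induce, was at 67.3, 40.1, 43.2 and 84.2 with FLI and 16.6, 21.2 and 26.4 in controls (1.37, SE 0.32, edgeR adjusted p = 0.0464). LGALS3BP, a secreted glycoprotein, was at 69.7, 65.1, 41.1 and 80.7 against 21.4, 27.5 and 33.9 (1.17, SE 0.3, edgeR adjusted p = 0.0474). IFITM3, a membrane protein that restricts virus entry, was at 24.1, 24.96, 40.2 and 49.7 against 220.1, 182 and 55.2 (-1.94, SE 0.48, edgeR adjusted p = 0.0464) in one of the 2 entries that carry its symbol. The second entry overlapped between groups, and reads of such copies are uncertain. The interferon targets IFITM1 (-0.85) and ISG15 (-0.43) were negative, and MX1 (1.13) and IRF9 (0.71) positive, each uncalled.

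The other genes that edgeR called higher were few and of mixed function. They included the imprinted zinc finger factor PLAGL1, at 2.48, 2.97, 4.598 and 3.21 with FLI and 0.961, 0.802 and 1.49 in controls (1.04, SE 0.25, edgeR adjusted p = 0.0474). The interleukin-1 receptor IL1R1 (0.81), the activin inhibitor FSTL3 (1.19), the collagen crosslinker LOXL2 (1.15), the complement protease C1S (1.33) and the nucleoside transporter SLC29A1 (1.44) were also among the 32 (edgeR adjusted p = 0.0474, 0.0467, 0.0491, 0.0467 and 0.0474). These 5 were picked from the 32 after their values were seen. In all 32 every FLI library lay above every control.

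Among the 49 lists, the ribosome and the respiratory chain had the medians furthest from 0. All 78 cytosolic ribosomal protein genes tested had a negative difference, with a median log2 of -1.52, and edgeR called 41 of them lower, against 6.48% of all genes tested. In 64 of the 78, every FLI library lay below every control, against 12.5% of all genes. RPS27, of the small subunit, was at 189.8, 196, 397 and 258 with FLI and 1724, 1244 and 518 in controls (-2.05, SE 0.45, edgeR adjusted p = 0.0464). RPS23, in the decoding centre of the small subunit, was at 280.2, 286, 550.1 and 320.3 against 1954, 1407 and 718 (-1.86, SE 0.4, edgeR adjusted p = 0.0464). The order of libraries was alike in both, with FLI 2 and 4 lowest, control 1 highest, and FLI 6 next to control 7. Ribosomal protein genes have many processed copies, so single members are uncertain.

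Their list kept a median between -1.94 and -1.18 without single libraries and between -1.62 and -1.03 under other scalings. With the length trend removed the median was -0.65. Mean deviations were -0.88, -0.84, -0.16 and -0.57 in the FLI libraries and 1.4, 1.004 and 0.04 in the controls. Controls 1 and 3 were thus the high libraries, and control 7 lay nearer to FLI 6 than to the other controls.

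Mitochondrial ribosomal proteins had 69 of 75 members negative, a median of -1.18 (-0.61 with the length trend removed), and 28 (37.3%, against 6.48% of all genes) called lower by edgeR. MRPS18C was at 47.6, 50.4, 209.9 and 103 with FLI and 1006, 780.3 and 244 in controls (-2.75, SE 0.61, edgeR adjusted p = 0.0464), and MRPL47 at 77.2, 81.2, 179 and 121 against 604, 429 and 221 (-1.83, SE 0.41, edgeR adjusted p = 0.0464). Both were lower in every FLI library than in any control, and MRPL47 overlaps NDUFB5 on the other strand. Translation factors, in contrast, had 16 positive differences among 36 and a median of -0.09 (length-adjusted -0.06), a sign that turned under library sizes without rRNA fragments and mitochondrial genes (0.40). Among them the initiation factors EIF3J (-2.04, SE 0.53, edgeR adjusted p = 0.0464) and EIF5B (-1.51, SE 0.4, edgeR adjusted p = 0.0474) were lower without overlap.

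Ribosome biogenesis genes were divided evenly, 26 positive and 24 negative, with a median of 0.04 (length-adjusted 0.0057). Its sign changed under median centring (-0.05) and without single libraries (down to -0.07). NOP10, of the snoRNP that pseudouridylates rRNA, was at 169, 162, 467 and 302 with FLI and 2157, 1840.3 and 545 in controls (-2.37, SE 0.54, edgeR adjusted p = 0.0464). DDX21, a nucleolar helicase, was at 172, 168, 266 and 157 against 777, 694 and 268 (-1.49, SE 0.4, edgeR adjusted p = 0.0472), where FLI 6 and control 7 nearly met. With the length trend removed these 2 stood at -2.65 and -1.78.

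Of 75 nuclear genes of oxidative phosphorylation, 71 were negative, with a median of -1.81 (-1.08 with the length trend removed), 54 (72%, against 12.5% of all genes) lay below all controls, and edgeR called 48 (64%, against 6.48%) lower. The count per complex was 36 of 37 negative for complex I (median -1.83), 3 of 4 for complex II (-0.66), 8 of 9 for complex III (-2.12), 9 of 9 for complex IV (-1.79) and 14 of 15 for ATP synthase (-1.82). edgeR called 26, 0, 5, 8 and 8 of these lower. ATP5F1E, the epsilon subunit of ATP synthase, was at 146, 157, 364 and 218 with FLI and 2303, 1647 and 575 in controls (-2.64, SE 0.5, edgeR adjusted p = 0.0464). The electron carrier CYCS had a difference of -2.43 (edgeR adjusted p = 0.0464). Within the list, length and log2 difference had a Spearman coefficient of 0.689 over 75 genes, with the shorter subunits tending to lie further below the controls.

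The 13 genes of the mitochondrial genome had 12 negative differences, a median of -1.02 (-0.37 with the length trend removed), and 4 calls by edgeR (30.8%, against 6.48% of all genes), ND3, ATP8, COX3 and COX2. ATP8, a short subunit gene of ATP synthase, was at 62.5, 86.2, 180.3 and 107 with FLI and 753, 824 and 253 in controls (-2.41, SE 0.48, edgeR adjusted p = 0.0464). ATP8 overlaps ATP6 on the same strand, whose mean over the 7 libraries was 5370, so its reads are uncertain. COX1 (-0.27), ND4 (-0.34) and ND5 (-0.26) differed by less, each with overlap, and ND4L was positive (0.1). The list's mean deviation was -0.41, -0.05, -0.11 and -1.46 in the FLI libraries and 0.97, 0.88 and 0.19 in the controls, so FLI 7 was the lowest here and not FLI 2 and 4. The order of the libraries within FLI thus differed between the 2 genomes, and both lists had negative medians.

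Other mitochondrial and protein-turnover groups had smaller medians. Mitochondrial import and chaperone genes had 20 of 27 negative (median -0.74, -0.24 with the length trend removed), among them TIMM8B, an intermembrane chaperone, at 51.7, 52.1, 141 and 105 with FLI and 792, 546 and 190.1 in controls (-2.44, SE 0.53, edgeR adjusted p = 0.0464), and DNAJC19 (-1.96, SE 0.45, edgeR adjusted p = 0.0464). Proteasome subunits had 29 of 34 negative (median -0.82, -0.49 with the length trend removed), and edgeR called 2 of them (5.88%, against 6.48% of all genes), PSMB3 (-1.7, SE 0.44, edgeR adjusted p = 0.0474) and PSMA3 (-1.5, SE 0.39, edgeR adjusted p = 0.0486). The cytosolic and mitochondrial ribosome, respiratory chain, mitochondrial genome, import and proteasome lists together held 129 of the 859 genes that edgeR called lower. The others lay outside them.

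**Figure D4:**
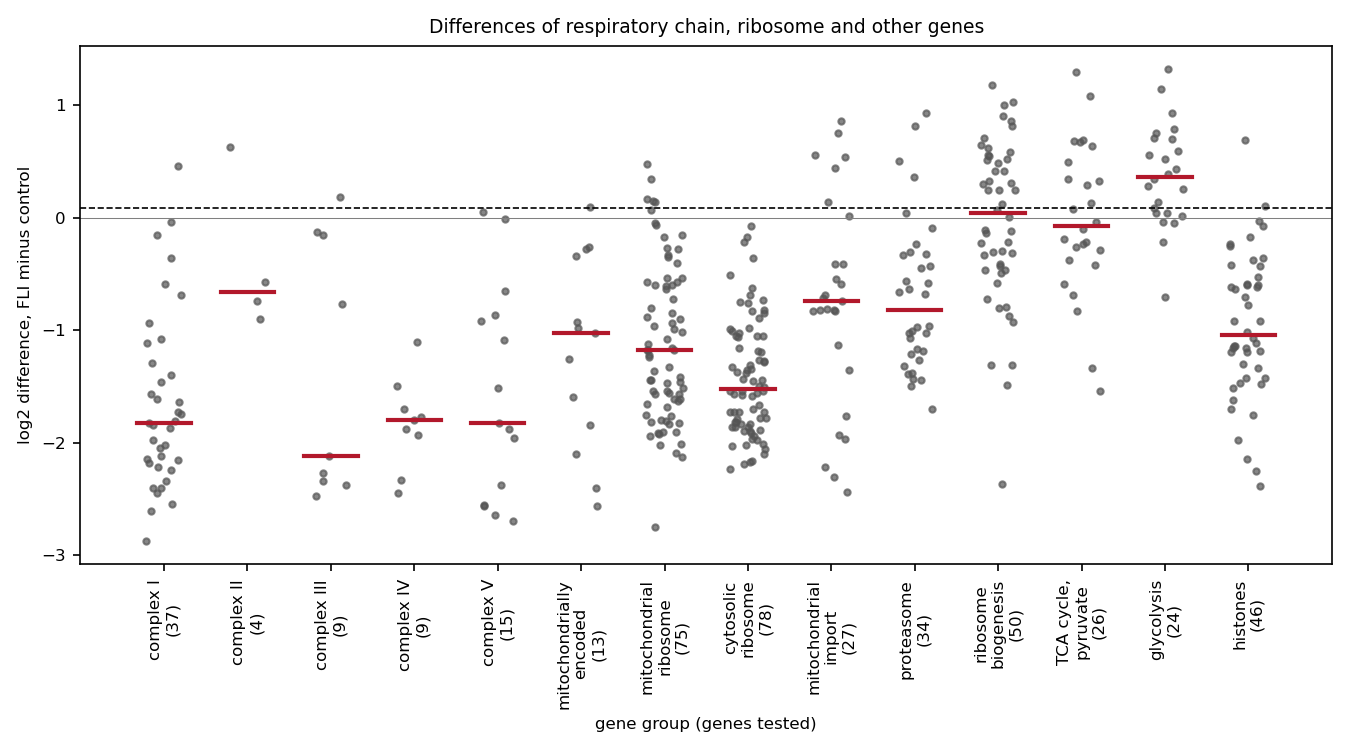
Log2 difference of FLI minus control for each tested gene of 14 groups, one point per gene, with the median of each group as a red bar and the median of all 13254 genes (0.083) as a dashed line. All 78 cytosolic ribosomal proteins lie below 0 and complexes I, III, IV and V have medians between -2.12 and -1.79. Ribosome biogenesis and glycolysis have medians of 0.04 and 0.37.

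Histone genes were added as a group after the histones above had been seen. Of 46 tested, 44 were negative, with a median of -1.04; 20 lay below all controls and edgeR called 11 lower, where 12.5% and 6.48% of all genes did. Removal of the length trend brought their median to 0.05. For the 36 genes of the histone clusters, of median length 410 bases, it was 0.08. H1-4 remained at -1.38 and H2AC12 at -1.1 on that scale. Outside the clusters, H3-3A (-1.76), H2AZ2 (-1.34), H2AZ1 (-1.16) and H3-3B (-1.14) were negative too, while H1-10 was positive (0.69). With the length trend removed the 4 negative ones stood at -1.06, -0.39, -0.58 and -0.97. Transcripts of clustered histones mostly lack poly(A) tails, and the kit used here primes on such tails. The part of this priming in the differences was not tested.

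Among lineage genes most of the well-known factors overlapped between the groups. Of 25 epiblast factors, 17 were positive (median 0.33, length-adjusted 0.53), 4 (16%, against 8.73% of all genes) lay above and 3 (12%, against 12.5%) below all controls, and edgeR called DPPA3 lower. DPPA3, a maternal factor that protects methylation, was at 81.7, 127, 175 and 153 with FLI and 435, 362 and 235 in controls (-1.36, SE 0.34, edgeR adjusted p = 0.0472). PRDM14, a germline and pluripotency regulator, was at 228, 176, 196 and 305 against 78.9997, 97.2 and 142 (1.1, SE 0.3, edgeR adjusted p = 0.0589), higher in all 4 FLI libraries. The core factors POU5F1 (-0.17, SE 0.32) and NANOG (-0.34, SE 0.25) overlapped.

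Among 23 hypoblast markers 17 were positive, with a median of 0.34 (0.04 with the length trend removed). GATA6, the factor that founds the hypoblast, was at 583, 525, 321 and 619 with FLI and 99.4, 166 and 341 in controls (1.48, SE 0.43, edgeR adjusted p = 0.08601), and control 7 exceeded FLI 6. SOX17, a later hypoblast factor, was at 18.9, 18.5, 15.1 and 19.1 against 3.36, 8.05 and 13.9 (1.17, SE 0.38), with no overlap. GATA4 (-0.55), its partner, was negative, and FGFR2 was the member that edgeR called. Trophectoderm markers had 16 of 25 positive with a median of 0.19 (length-adjusted 0.13), and the member with the smallest p was SFN, an epithelial 14-3-3 protein, at 8.19, 5.71, 4.27 and 9.41 against 1.6995, 2.47 and 4.42 (1.04, SE 0.34). CDX2 (0.44), GATA3 (-0.14) and KRT8 (-0.03) overlapped, and edgeR called 0 of the list.

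Genes of cell contact leaned towards higher values with FLI. Of 43 genes of adherens and tight junctions, 34 were positive (median 0.44, 0.27 with the length trend removed), with 7 above and 1 below all controls (16.3% and 2.33%, against 8.73% and 12.5% of all genes) and 0 edgeR calls. GJA1, the gap junction protein connexin 43, was at 3.81, 2.05, 2.34 and 6.14 with FLI and 0.3605, 1.24 and 0.993 in controls (1.25, SE 0.34, edgeR adjusted p = 0.0544). CLDN10, a claudin that forms ion channels, was at 141, 140.3, 197 and 244 against 597, 529.6 and 252 (-1.29, SE 0.37, edgeR adjusted p = 0.051003). They ran in opposite directions, and neither overlapped between groups.

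Hippo pathway genes had 23 of 29 positive, a median of 0.58 (0.30 with the length trend removed), 3 above all controls (10.3%, against 8.73% of all genes) and 1 edgeR call, CCN1. SAV1, the scaffold of the MST kinases, was at 22.3, 20.02, 16.997 and 30.1 with FLI and 8.84, 9.82 and 14.6 in controls (0.95, SE 0.29, edgeR adjusted p = 0.0701). YAP1, the effector of the pathway, was at 58.6, 48.2, 30.4 and 24.97 against 8.6004, 10.3 and 30.5 (1.38, SE 0.45), and TEAD4, its partner in trophectoderm, had a difference of 0.29 (SE 0.26). YAP1 and TEAD4 overlapped between groups.

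Apical polarity and cortex genes had 22 of 36 positive (median 0.25, length-adjusted 0.35), but the members with the smallest p were negative. MYL6, a myosin light chain, was at 666, 522, 867 and 1136 with FLI and 4258, 3167 and 1307 in controls (-1.77, SE 0.45, edgeR adjusted p = 0.0469), and MYL12B, another, had -1.36 (SE 0.34, edgeR adjusted p = 0.0464). In blastocoel transport, 9 of 15 were positive (median 0.35, length-adjusted 0.21). There, AQP7, a water and glycerol channel, was at 3.74, 4.11, 7.06 and 10.04 against 24.6, 16.2 and 10.3 (-1.33, SE 0.39), lower in each FLI library like FXYD4 above. The pump subunit ATP1B1 (-0.25) overlapped.

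Extracellular matrix and integrin genes had 25 of 32 positive, a median of 0.52 (length-adjusted 0.20), and 5 (15.6%, against 8.73% of all genes) above all controls. ITGAV, the alpha-v integrin, was at 23.1, 14.6, 10.9 and 10.004 with FLI and 1.67, 2.96 and 6.97 in controls (1.76, SE 0.41, edgeR adjusted p = 0.0539). COL1A2, a fibrillar collagen chain, was at 5.03, 6.47, 2.84 and 4.36 against 1.24, 2.61 and 2.35 (0.88, SE 0.3). Both lay above all controls in each FLI library, and edgeR called 0 of the list.

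Maternal and genome activation genes held members in both directions. Among 39 maternal factors 22 were positive with a median of 0.05 (length-adjusted 0.15), which was -0.05 under median centring and down to -0.12 without single libraries. OOEP, a component of the subcortical maternal complex, stood at 9.99, 13.8, 19.1 and 16.3 with FLI and 76.3, 66.1 and 25.1 in controls (-1.73, SE 0.4, edgeR adjusted p = 0.0464). OOEP overlaps KHDC3L on the other strand, so reads of this pair cannot be told apart. BTG4, an adaptor of maternal mRNA decay, was at 2.58, 6.32, 7.94 and 13.9 against 17.2, 36.2 and 27.1 (-1.8, SE 0.46), lower with FLI in all 4 libraries. Of 22 genes of genome activation 15 were positive (median 0.26, length-adjusted 0.37). Of these, SNAI1, a repressor of CDH1, was at 91.4, 65.4, 72.1 and 119 against 27.3, 42.1 and 58.2 (1.04, SE 0.32), EIF1AX, an initiation factor, at 286, 345, 618 and 437 against 1965, 2056 and 614 (-1.74, SE 0.47, edgeR adjusted p = 0.0472), and ZSCAN4, a marker of genome activation, had a difference of 0.09.

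Chromatin genes were positive in most members. Histone-modifying enzymes had 49 of 57 positive (median 0.53, length-adjusted 0.26), with 2 above and 2 below all controls (3.51% each, against 8.73% and 12.5% of all genes) and 0 edgeR calls. SIRT1, a deacetylase, was at 164, 206, 194 and 221 with FLI and 377, 329 and 261 in controls (-0.7, SE 0.26), and KAT2A, an acetyltransferase, had 1.4 (SE 0.54) with overlap. DNA methylation and TET genes had 11 of 17 positive (median 0.24), a sign that turned in the length-adjusted median (-0.09), and TDG, the glycosylase that completes demethylation, was at 4.45, 5.404, 3.27 and 4.09 against 12.4, 9.42 and 8.37 (-1.06, SE 0.26, edgeR adjusted p = 0.0474). Imprinted genes had 11 of 17 positive (median 0.20, length-adjusted 0.26), led by PLAGL1, while PHLDA2, which restrains placental growth in mice, had -1.01 (SE 0.39). SR proteins and splicing factors had 25 of 40 negative with a median of -0.37 (length-adjusted -0.21), which was 0.10 with library sizes without rRNA fragments and mitochondrial genes, and edgeR called PRPF4B, a splicing kinase (-1.32, SE 0.36, edgeR adjusted p = 0.0467).

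Among metabolic groups, directions were mixed. Glycolysis had 20 of 24 positive (median 0.37, 0.32 with the length trend removed) and 5 (20.8%, against 8.73% of all genes) above all controls. PKM, pyruvate kinase, was at 485, 487, 377 and 667 with FLI and 172, 179.6 and 359 in controls (1.14, SE 0.35, edgeR adjusted p = 0.0852), and HK2, hexokinase, at 245, 208, 177 and 179 against 42.97, 62.9 and 184 (1.32, SE 0.44), where control 7 overlapped the FLI libraries. In the TCA cycle and pyruvate list 12 of 26 were positive, with a median of -0.07 that was 0.41 with library sizes without rRNA fragments and mitochondrial genes and 0.02 when length-adjusted, and both chains of the mitochondrial pyruvate carrier were lower by edgeR, MPC2 (-1.54, SE 0.38, adjusted p = 0.0464) and MPC1 (-1.33, SE 0.37, adjusted p = 0.0484). Fatty acid genes had 24 of 34 positive (median 0.32, length-adjusted 0.09), yet FABP5 and FABP3, which carry fatty acids in the cytosol, were lower. FABP3 was at 327, 402, 683 and 624 against 2279.6, 1883 and 879 (-1.68, SE 0.42, edgeR adjusted p = 0.0467), and FABP5 at 10.6, 15.2, 31.8 and 26.2 against 91.6, 82.6 and 42.3 (-1.78, SE 0.41, edgeR adjusted p = 0.0464).

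Cholesterol synthesis had 15 of 23 positive (median 0.14, length-adjusted -0.00097), with DHCR7, its last reductase, at 51.5, 52.5, 50.8 and 82.7 with FLI and 25.4, 30.4 and 44.4 in controls (0.82, SE 0.29). Amino acid transporters had 15 of 20 positive (median 0.28, length-adjusted 0.03) and SLC1A4, a carrier of small neutral amino acids, at 80.8, 55.9, 39.8 and 37.9 against 26.1, 21.5 and 29.4 (0.98, SE 0.31). Serine and one-carbon enzymes had 16 of 23 positive (median 0.36, length-adjusted 0.22), and GCSH, of the glycine cleavage system, was at 590.4, 553, 921 and 776 against 2498, 1858 and 1012 (-1.27, SE 0.38, edgeR adjusted p = 0.0598). edgeR called 0 of the cholesterol and amino acid transporter lists.

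Stress groups differed among themselves. Antioxidant enzymes had 19 of 30 negative (median -0.38, length-adjusted -0.12, and 0.09 with library sizes without rRNA fragments and mitochondrial genes) and 5 edgeR calls (16.7%, against 6.48% of all genes), among them TXN, thioredoxin, at 106, 123, 258 and 159 with FLI and 1338, 1049.6 and 309 in controls (-2.31, SE 0.51, edgeR adjusted p = 0.0464) and GLRX, glutaredoxin (-1.48, SE 0.34, edgeR adjusted p = 0.0464). The unfolded protein response had 14 of 26 positive (median 0.20, length-adjusted 0.14, and down to -0.05 without single libraries). In it MANF, a secreted chaperone cofactor, was lower (-1.48, SE 0.4, edgeR adjusted p = 0.0474) and the pseudokinase TRIB3 lay above all controls (0.97, SE 0.28). Heat shock genes had 16 of 29 positive (median 0.09, length-adjusted -0.02, and -0.0038 under median centring), with the regulator HSF1 at 167, 147, 132 and 196 against 31.3, 56.7 and 113 (1.42, SE 0.39, edgeR adjusted p = 0.0823). BCL2 family genes and p53 targets had 17 of 28 positive (median 0.19, length-adjusted 0.03), and BAD, a pro-apoptotic member, lay below all controls (-1.27, SE 0.38, edgeR adjusted p = 0.0568).

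DNA replication genes had 26 of 50 positive (median 0.02) and mitosis genes 18 of 43 (median -0.23), and both signs depended on the scaling (-0.07 under median centring, and 0.26 with library sizes without rRNA fragments and mitochondrial genes). The length-adjusted medians were -0.10 and -0.25, and without single libraries the median of DNA replication went down to -0.14. RPA3, a subunit of the single-strand binding complex, was at 37.5, 45.97, 98.8 and 71.8 with FLI and 340.4, 279 and 118 in controls (-1.9, SE 0.44, edgeR adjusted p = 0.0464). CENPK, a kinetochore protein, was at 12.95, 13.9, 26.6 and 23.8 against 72.7, 58.3 and 30.4 (-1.41, SE 0.37, edgeR adjusted p = 0.0484). Both lay below all controls in each FLI library. edgeR called 2 genes of each list lower (4% and 4.65%, against 6.48% of all genes).

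**Figure D5:**
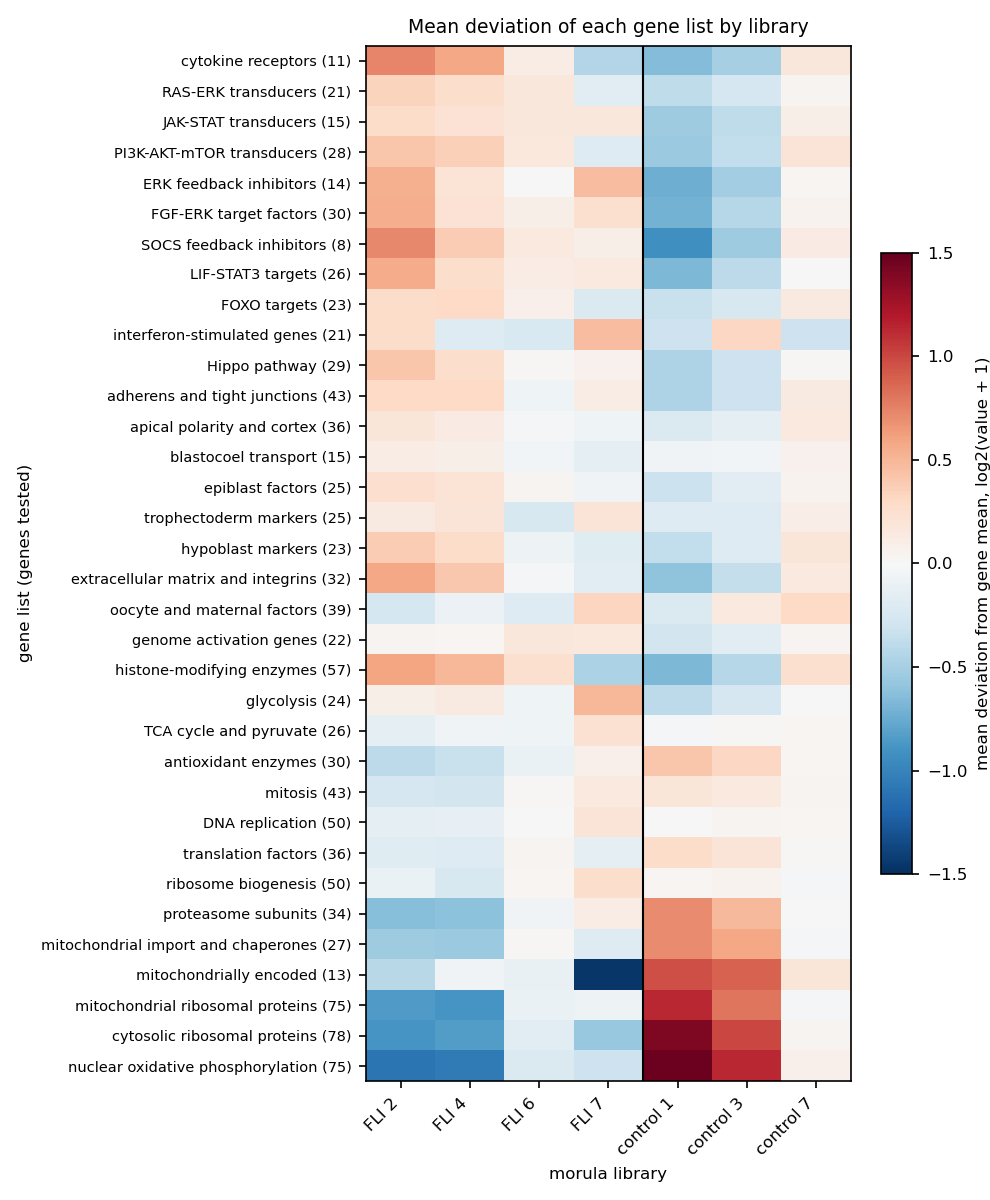
Mean log2 deviation of 34 gene lists (vertical) in each of the 7 morula libraries (horizontal) from the mean over the libraries, as colour. Oxidative phosphorylation runs from -1.10 in FLI 2 to 1.47 in control 1, ERK feedback inhibitors run from 0.54 in FLI 2 to -0.73 in control 1, and the columns of FLI 6 and control 7 are pale in both.

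Markers of other cells that a pool could hold differed in level. The summed level of 17 listed cumulus cell markers (10 tested) was 60.6 to 80.9 in FLI libraries and 52.4 to 56.9 in controls, so every FLI sum exceeded every control sum. Its most abundant members were NR5A2 (highest value 33.1), PTGS2 (21.7) and STAR (13.9). The defining markers CYP19A1 and HAS2 were at most 2.59 and 0.344, and FST, HSD3B1 and CYP11A1 were highest in FLI 7, at 4.23, 7.69 and 4.56. The sum of 12 sperm markers was 68.2 to 82.8 with FLI and 80.6 to 159 in controls, and the protamine gene PRM1 was at most 1.26. TNP2, a transition protein of spermatids, was at 10.4, 5.56, 24.5 and 22.03 with FLI and 95.3, 71.4 and 20.6 in controls (-1.88, SE 0.59). It was the largest member of the sum in controls 1 and 3 only. ODF2 was the largest in every FLI library and in control 7. Its values leaned the other way with overlap, at 48.6, 41.02, 36.03 and 44.07 with FLI and 26.2, 22.8 and 40.6 in controls. Of the 6 sperm markers tested, 2 had a positive and 4 a negative difference. The sum of 19 blood, immune and endothelial markers was 116 to 185 with FLI and 121 to 126 in controls, with the most abundant members being CSF1R (highest value 94.1), PECAM1 (49.4), HBA (26.5) and VWF (17.3). The lysozyme gene LYZ and the T cell gene CD3E were at most 0.316 and 0.635. HBA, a hemoglobin chain, was at 3.16, 4.11, 7.04 and 9.99 with FLI and 26.5, 22.2 and 7.18 in controls (-1.4, SE 0.48), high in controls 1 and 3. The medians of these 3 lists were 0.38, -0.34 and 0.09, and 0.18, -0.18 and -0.18 when length-adjusted. The signs of the sperm and blood lists turned with library sizes without rRNA fragments and mitochondrial genes (0.0013) and under median centring (-0.0054). That of the blood list also turned without single libraries (down to -0.03). The part of these markers in the other differences was not tested.

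The FLI effect at this stage was also compared with that at the neighbouring stages, on the jointly scaled CPM. Embryos of different stages are different collections, and these cannot be told apart from stage. For the difference from the 9-16 cell stage, the count of genes called by limma was 0 of 13736 (0%), and 937 had an unadjusted p under 0.05. edgeR called 0 too, with 676 under it. The smallest p belonged to SLC44A4, a choline transporter family member. It was at 52.7 ± 10.8 (SD, n = 4) with FLI and 28.5 ± 7.89 (SD, n = 3) in control morulae, and at 0.584 ± 0.283 and 1.74 ± 0.570 (SD, n = 4 each) at the 9-16 cell stage, a log2 difference of effects of 1.67 (SE 0.37, limma adjusted p = 0.585). DRC3 and DNAI4, genes of motile cilia, followed, with differences of effects of -2.44 (SE 0.58) and -1.43 (SE 0.34). Without control 7 limma called 26 genes, and without FLI 6 it called 1.

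For the difference from blastocysts, 4 FLI and 3 control blastocyst libraries were used, and control 6 of that stage, with 2995 reads, was left out. The count was again 0 of 13736 (0%) by limma, and 3770 genes had an unadjusted p under 0.05. edgeR called 0 too, with 3608 under it. With that control kept limma called 0, and 1949 genes had an unadjusted p under 0.05, of which 61 had a higher effect in morulae, against 1894 of 3770 without it. The smallest p belonged to CARD9, an adaptor of innate immune receptors, at 0.232 ± 0.0894 (SD, n = 4) with FLI and 0.781 ± 0.221 (SD, n = 3) in control morulae and at 2.70 ± 0.7801 (SD, n = 4) and 0.970 ± 0.411 (SD, n = 3) in blastocysts. Its difference of effects was -1.43 (SE 0.29, limma adjusted p = 0.134). CARD9 averaged 0.472 in the deposited values of the 7 morula libraries, under the mean of 1 needed for the morula test. It also overlaps DNLZ on the same strand, which averaged 37.4, so its reads are uncertain. FOLR3, a folate receptor, had -1.88 (SE 0.39), and EPAS1, the hypoxia factor HIF2A, had 2.02 (SE 0.42), with 1.85 ± 0.188 against 1.83 ± 0.927 in morulae and 8.87 ± 4.11 (SD, n = 4) against 35.7 ± 9.74 (SD, n = 3) in blastocysts. The count was 2493 without control 7, 1874 without FLI 7 and 1 without FLI 6. 

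The authors' deposited table for this stage compares all 8 libraries, control 4 included, by a likelihood ratio test. By the authors' deposited table, of 17446 genes 1856 had a false discovery rate under 0.05, 580 higher and 1276 lower with FLI. Of these, 663 were among the 891 called by edgeR over the 7 libraries, which is 74.4% of the 891 and 35.7% of the 1856.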

How the data were processed

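RNA of pooled bovine embryos was purified with PicoPure columns and turned into amplified cDNA with SMART-Seq v4, a low-input chemistry primed on poly(A) tails, per the labels' protocols. The submitters' processing notes name FastQC, HISAT2, featureCounts and edgeR, and the build ARS-UCD1.2. No version, strand setting or gene filter is named in the sources. The deposited values are a signal: the authors divided reads by a scaled library size. In each library 100% of values were multiples of the smallest positive one (tolerance 0.001). Dividing by it gave recovered reads, 11641958 to 114138150 per library, whose intervals would cover counting error only. Per the file headers, the authors' table also holds log2 fold changes (read here as control minus FLI), likelihood ratios, which are a score, and p-values with their false discovery rates.

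Differences were tested with limma 3.58.1 (trend, robust) in R 4.3.3 on log2(value + 1) for genes averaging 1 or more in the 7 libraries, at a Benjamini-Hochberg adjusted p of 0.05. Recovered reads were tested with edgeR 4.0.16 (quasi-likelihood), limma-voom and DESeq2 1.42.0. The stage comparison used recovered reads scaled jointly with TMM, as log2(CPM + 1). Library measures were compared by exact permutation. The length trend was removed as a lowess curve (span 0.3) per library. The fits and the permutation test were tested on simulated data. Alternatives were other pseudocounts, filters, scalings and tools, and libraries left out.

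Named genes are, per direction, the 12 with the smallest p among genes that have a symbol, average 5 or more and do not overlap between groups. Added to these are up to 2 genes with the smallest p of each of 49 gene lists, the tested receptors and ligands, and 3 genes per stage comparison. Other list members that a reader would look for were picked after their values were seen and are not marked one by one. Among these are SOCS3, SOCS4, STAT3, DUSP6, IGFBP2, IGFBP7, YAP1, SOX17, BTG4, IFITM3 and MX1. Some genes that the rules name are not reported here. The comparison, the lists and the rules were chosen with earlier results of these data known. The edgeR fits without single libraries, the length correction, the median centring and the group of histones were added after the data were seen.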

Additional observations from a re-analysis of the deposited data

Results flagged for a closer look

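In 8 of 185 sets of 4 FLI libraries checked, 1 library stood so far from the other 3 that the gap took most of the range; chance gives about 1 in 20. The library was FLI 6 in 4 of these, FLI 7 in 2, and FLI 2 and FLI 4 in 1 each. The protease inhibitor A2M was at 48.7 in FLI 2, and FGF19 at 5.94 in FLI 4. FLI 6 had the highest FLI value of the histone H2AC12 (29.8), of the ribosomal protein RPS23 (550.1) and of the helicase DDX21 (266.1), and a mean deviation of -0.24 over the trophectoderm markers. FLI 7 had the highest FLI value of PEBP4 (7.703) and of the sterol reductase DHCR7 (82.7). The causes were not tested.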

How the results depend on the processing

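The count of genes called between FLI and control morulae by limma was 0 in the reported fit and in most alternatives, 891 with edgeR and 2547 with DESeq2, and it ranged from 0 to 4620 when single libraries were left out. That of edgeR then ranged from 0 to 4616. The count of genes whose FLI effect differed from the 9-16 cell stage ranged from 0 to 26 without single libraries, and that against blastocysts from 0 to 2493. The 7 libraries share only replicate number 7, so a fit with the replicate number as a block needs control 4 (83409 reads). It called 18 genes (16 higher, 2 lower), and 41 of 126 named genes then had the other sign. With control 4 kept and no block, limma called 0, with 1152 genes at an unadjusted p under 0.05, and 9 of 126 named genes had the other sign. In every other alternative at most 4 of the named genes changed sign. Library sizes without rRNA fragments and mitochondrial genes moved the median of all genes from 0.083 to 0.50 and called 0 genes, with 5360 at an unadjusted p under 0.05, of which 3913 were higher. Of the 49 lists, 12 changed the sign of their median with a scaling and 6 without 1 library. The differences of the 5 library measures kept their direction, but with control 4 kept the control mean of the mitochondrial share was 7.16% in place of 5.40% and that of genes at 1 CPM 11529.8 in place of 12525.7. The causes were not tested. With 4 and 3 libraries no exact permutation p can fall under 0.0286. Recovered reads are amplified molecules, so depth alone does not give the error of low genes.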

Other observations

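Several transcripts that the oocyte makes were highest in FLI 7. BMP15, an oocyte growth factor, was at 15.5 there and at 0.721 to 5.91 in the other 6 libraries. KHDC3L, a partner of OOEP in the oocyte, reached 34.5 against 1.97 to 11.5, CPEB1, which controls maternal mRNA polyadenylation, at 38.7 against 3.03 to 17.9, the kinase gene MOS at 13.3 against 0.603 to 7.05, and the oocyte linker histone H1-8 at 11.5 against 1.1021 to 6.99. The highest values among the other libraries came from control 3 or control 7. GDF9 did not follow, at 0.974 in FLI 7 and 0.381 to 1.47 elsewhere, and OOEP and BTG4 were lower in FLI 7 than in the controls. OOEP and KHDC3L overlap on opposite strands, so their reads cannot be told apart. HSD3B1, a steroidogenic enzyme of follicle cells, was at 7.69 in FLI 7 against 0.533 to 2.14, and CYP11A1, another, at 4.56 in FLI 7 and 3.76 in control 3 against 0.465 to 1.24. These genes were picked after their values were seen, and no test was made.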
